A study of Mus musculus with 16 samples.

Results

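Regulatory T cells (Treg) of the non-pregnant mouse uterus were compared with the conventional CD4-positive T cells (CD4conv) of the same organ. The comparison uses 8 of the 16 RNA-seq libraries of the series, 4 of uterine Treg and 4 of CD4conv, chosen by their labels as the non-pregnant uterine Foxp3-positive and Foxp3-negative CD4 cells. All mice were of BALB/c background and carried the Foxp3 IRES-GFP reporter, an allele that makes cells transcribing Foxp3 fluoresce green. Uterine Treg were labelled CD4+Foxp3+CD25- and CD4conv CD4+Foxp3-, and each of these 8 libraries was made from a pool of 20 mice. The library numbers are 1, 2, 3 and 5 in both groups, and values below follow that order. Pregnant uterine Treg, also labelled CD4+Foxp3+CD25- and pooled from 3 to 8 mice at days 6 to 8 of pregnancy by their source label (the titles of 3 of 4 give a later last day), serve as a side-by-side reference. The labels give no age for the animals. CD4conv and pregnant uterine Treg were sequenced in batch 1 and uterine Treg in batch 2, so for uterine Treg against CD4conv the batch and the cell type cannot be told apart. Within batch 1, pregnant uterine Treg can be set against CD4conv, and those values are given beside the main ones. That contrast shares the CD4conv libraries with the main comparison and is not independent of it.

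Treg restrain other immune cells. Their identity rests on the transcription factor Foxp3, which works with partners such as Helios, and on surface molecules that remove costimulatory ligands (CTLA-4), consume interleukin-2 (CD25, encoded by Il2ra) or present latent TGF-beta (GARP, encoded by Lrrc32). Treg of non-lymphoid organs are known to carry in addition receptors of the TNF receptor superfamily, the integrin chain CD103 and growth factors such as amphiregulin. In the uterus Treg are best known for tolerance of the fetus.

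Total counts per library were 2020507 to 5615096 in uterine Treg and 7674391 to 12302043 in CD4conv. An even background of reads, estimated from 1427 olfactory and vomeronasal receptor genes that T cells do not use, would make up 11.6% to 34.9% of the counts of uterine Treg and 9.39% to 21.7% of those of CD4conv. Uterine Treg replicates 3 and 5 were above 30%. The test was therefore run on all 30096 genes that passed the filter on low counts. It was run again on the 4719 protein-coding genes whose level exceeded 5 times that background. That level is a mean over all 16 libraries, most of them Treg. Genes high in Treg therefore pass this limit more readily than genes high in CD4conv. Counts of higher and lower genes above background are thus not on equal terms. Levels are counts scaled to the library total (CPM), and differences are log2 fold changes, uterine Treg minus CD4conv, with their standard error (SE). P-values are Benjamini-Hochberg adjusted values of edgeR's quasi-likelihood test, with 0.05 as the threshold. Unless all genes are named, values come from the genes above background.

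Over all genes 10 were higher in uterine Treg (0.0332% of those tested) and 146 were lower (0.485%). Among genes above background 147 were higher (3.12%) and 141 lower (2.99%), and the median log2 fold change was 0.02. The 4 libraries of each group did not overlap for 159 genes higher in uterine Treg (3.37% of the genes above background) and for 326 lower ones (6.91%). An unadjusted p under 0.05 was reached by 0.954% of all genes on the higher and 4.38% on the lower side, and by 9.6% and 9.87% of the genes above background. DESeq2 called 0.133% higher and 0.93% lower of all genes, and 4.34% and 4.92% of those above background. The counts also depend on the scaling. Scaled on 12 genes of the T cell receptor complex and T cell signalling instead of TMM, the median of the genes above background moved to -0.71, and 30 genes were higher (0.636%) and 539 lower (11.4%). Over all genes that scaling gave 11 higher (0.0365%) and 104 lower (0.346%). The summed level of those 12 genes was 7841, 7541, 4310 and 2714 CPM in uterine Treg and 4686, 3284, 1869 and 4763 CPM in CD4conv, so the groups overlapped. Of the T cell genes described below as higher, Foxp3, Ikzf2, Lrrc32, Ctla4, Tnfrsf9, Klrg1, Rln3 and Itgae were also called over all genes, and the others among genes above background only. Of the lower genes, Socs3, Id2, Irf7, Nkg7, Gzma and Xbp1 were called above background only. Over all genes the calls of Foxp3, Lrrc32 and Rln3 held in all 8 fits that left out 1 library. Those of Ikzf2, Ctla4, Tnfrsf9 and Cxcr6 were lost in 7 of the 8, those of Klrg1 in 6 and those of Itgae in 5, although each held in all 8 among genes above background. The Klrg1 and Cxcr6 calls over all genes also ended under T cell scaling. TMM values are used below, and a gene whose printed call did not pass under T cell scaling is named as such.

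Most listed genes that were higher came from T cell lists, and most that were lower from lists of other cells. Of the 147 genes higher in uterine Treg, 34 were members of a list of T cell genes or responses only, 1 of a marker list of another cell type only, and 1 of both. The 141 lower genes held 3 members of the T cell lists only, 25 of the other-cell lists only and 3 of both kinds. The other 111 higher and 110 lower genes were in no list. The T cell lists have more entries above background than the other-cell lists, and the split was not tested against list size. The split is therefore given as a count only, on the higher and on the lower side. The lists were also chosen with earlier results of these data known, so the split is not independent of those results. Over all genes the 146 lower ones held 38 members of other-cell lists only. In bulk samples such as these, fewer cells of a type and less RNA per cell cannot be told apart.

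**Figure D1:**
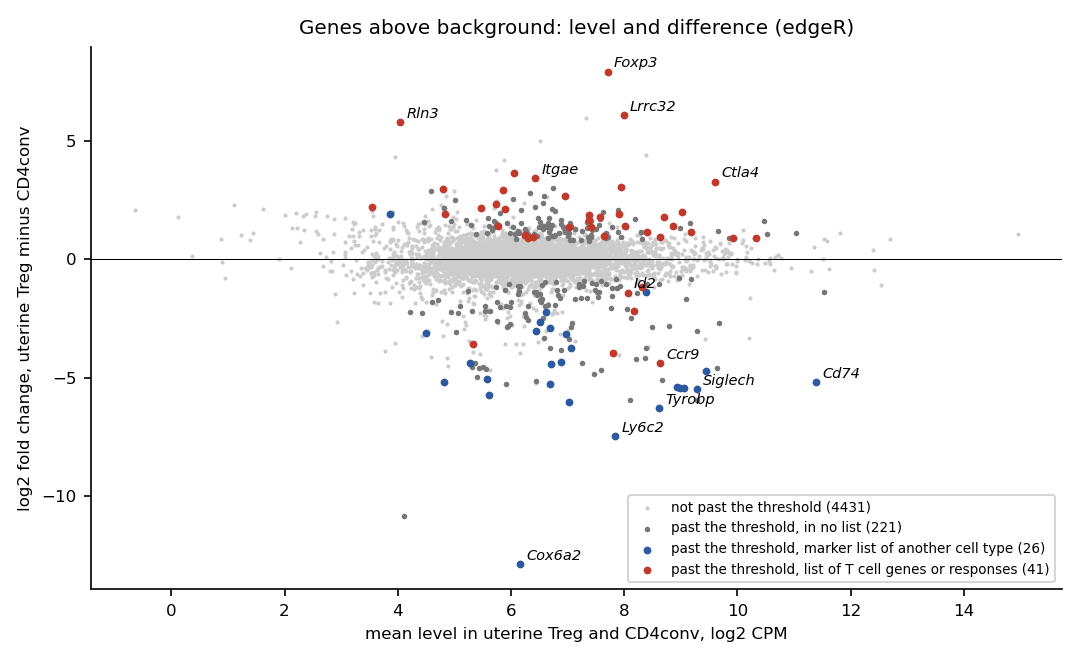
Each point is 1 of the 4719 genes above background, with its mean level in uterine Treg and CD4conv (log2 CPM) on the x axis and its log2 fold change (uterine Treg minus CD4conv, edgeR) on the y axis. Red points are members of T cell lists and blue points members of other-cell lists past the threshold. Foxp3, Lrrc32 and Rln3 lie highest among the genes named, and Cox6a2 lies lowest, at a fitted value that depends on the prior count since uterine Treg held none of its reads.

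Foxp3 (chromosome X, 7573644 to 7595245 in GRCm38) was at 394, 714, 331 and 227 CPM in uterine Treg and at 3.06, 0.569, 0.503 and 3.26 CPM in CD4conv. Every Treg library was above every CD4conv library by a wide margin (log2 7.92 ± 0.58, adjusted p = 2.27e-07, edgeR). Because the cells were sorted on the Foxp3 reporter, the sort itself can set this difference. The gene's span overlaps Ppp1r3f and Ccdc22 on the opposite strand, and the library kits do not mark strand. Among 18 tested genes of Foxp3 and its partner transcription factors, 2 were higher and 0 lower over all genes. Of the 15 above background, 5 were higher and 0 lower, with a list median of 0.73 against 0.02 for all genes above background. Scaled on T cell genes the count became 3 higher and 4 lower, and the list median -0.13 against -0.71 for all genes above background.

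The higher partners were Ikaros family members, a forkhead factor and a STAT. Ikzf2, which encodes Helios, was at 614, 439, 423 and 260.3 CPM in uterine Treg and at 60.7, 38.9, 50.2 and 74.1 CPM in CD4conv, with no overlap (log2 3.05 ± 0.26, adjusted p = 1.39e-06, edgeR). Ikzf4, which encodes Eos, a corepressor partner of Foxp3, was at 114, 106, 37.4 and 93.5 CPM and 15.4, 15.0, 7.24 and 37.0 CPM. The lowest Treg value, in replicate 3, was just above the highest CD4conv value, in replicate 5 (log2 2.33 ± 0.40, adjusted p = 0.00122, edgeR). Foxo1, which drives genes of quiescence and homing, was at 895, 912, 508 and 338 CPM and 359, 146, 194 and 353 CPM. Treg replicate 5 lay within the CD4conv range (log2 1.41 ± 0.28, adjusted p = 0.00375, edgeR), and the call ended under T cell scaling (log2 0.68, adjusted p = 0.136). Stat5b, which carries the interleukin-2 signal, was at 404, 603, 266 and 209 CPM and 162, 86.9, 121 and 216 CPM, overlapping in the same library (log2 1.40 ± 0.30, adjusted p = 0.00817, edgeR), and its call ended under T cell scaling too (adjusted p = 0.158). Runx3 and Ikzf1, further partners, did not pass, with log2 fold changes of -0.75 (adjusted p = 0.156) and -0.62 (adjusted p = 0.237, edgeR).

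**Figure D2:**
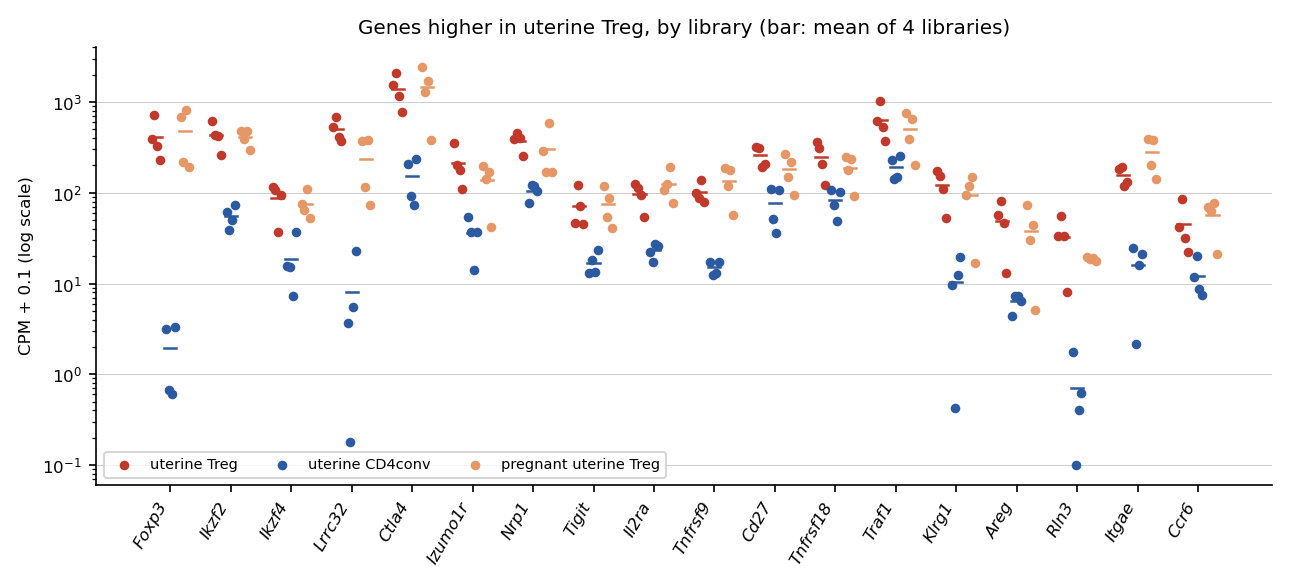
Level of 18 genes in each library (CPM + 0.1, log axis) of uterine Treg (red), CD4conv (blue) and pregnant uterine Treg (orange), with a bar at the mean of 4 libraries. The uterine Treg points lie above all CD4conv points for each of the 18 genes, and Foxp3, Lrrc32 and Rln3 show the widest gaps.

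Surface molecules of suppression followed. Of 14 tested, 2 were higher over all genes and none lower. Of the 10 above background 4 were higher and none lower (list median 1.38). Lrrc32 (chromosome 7, 98489283 to 98502181), whose product GARP holds latent TGF-beta on the cell surface, was at 534, 687, 409 and 368 CPM in uterine Treg and at 3.61, 0.0813, 5.43 and 22.5 CPM in CD4conv. CD4conv replicate 5 was the highest of its group and still far below any Treg library (log2 6.11 ± 0.90, adjusted p = 0.000625, edgeR). Ctla4 (chromosome 1, 60887000 to 60915832), the inhibitory receptor that strips B7 ligands from antigen-presenting cells, was at 1549, 2105, 1176 and 769.6 CPM and 206, 93.2, 73.0 and 237 CPM. All 4 Treg libraries were above all CD4conv libraries (log2 3.28 ± 0.38, adjusted p = 2.26e-05, edgeR). Izumo1r, the folate receptor 4 gene, was at 354, 203, 180.0 and 111 CPM and 54.3, 37.3, 14.1 and 36.5 CPM (log2 2.66 ± 0.39, adjusted p = 0.000282, edgeR). Nrp1, a semaphorin receptor frequent on thymus-derived Treg, was at 390.4, 452, 400.3 and 252 CPM and 77.0, 122, 118 and 105 CPM (log2 1.91 ± 0.29, adjusted p = 0.000385, edgeR). Neither gene's groups overlapped, but Nrp1 did not pass under T cell scaling (log2 1.09, adjusted p = 0.0739). Tgfb1 and Il10, the suppressive cytokine genes, did not pass, with log2 fold changes of -0.37 (adjusted p = 0.499) and 1.37 (adjusted p = 0.155, edgeR).

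The reference bases before the RefSeq starts of Ctla4 and Tnfrsf9, both higher in uterine Treg, and of Bst2, which was lower, are shown as examples of genes on either side of the comparison. Ctla4 is a member of the Treg surface list, Tnfrsf9 of the TNF receptor list and Bst2 of the plasmacytoid list, and none of the windows holds an annotated exon. The bases are from RefSeq on GRCm38.p6 (C57BL/6 reference, not the BALB/c strain studied), 250 bases each, 5′ to 3′ toward the gene, with capitals for matches to 5 motifs on either strand. The windows are Ctla4 at chr1:60908775-60909024 (plus strand), Tnfrsf9 at chr4:150919905-150920154 (plus strand) and Bst2 at chr8:71537473-71537722 (minus strand).
Ctla4: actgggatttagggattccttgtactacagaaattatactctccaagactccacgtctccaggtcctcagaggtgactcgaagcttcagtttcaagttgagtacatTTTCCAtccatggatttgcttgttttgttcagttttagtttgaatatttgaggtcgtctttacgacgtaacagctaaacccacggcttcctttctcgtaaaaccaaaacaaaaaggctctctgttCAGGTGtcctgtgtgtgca
Tnfrsf9: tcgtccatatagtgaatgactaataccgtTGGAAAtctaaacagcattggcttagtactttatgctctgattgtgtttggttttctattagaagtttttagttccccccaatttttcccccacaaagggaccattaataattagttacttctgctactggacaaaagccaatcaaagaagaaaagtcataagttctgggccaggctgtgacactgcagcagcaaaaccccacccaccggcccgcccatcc
Bst2: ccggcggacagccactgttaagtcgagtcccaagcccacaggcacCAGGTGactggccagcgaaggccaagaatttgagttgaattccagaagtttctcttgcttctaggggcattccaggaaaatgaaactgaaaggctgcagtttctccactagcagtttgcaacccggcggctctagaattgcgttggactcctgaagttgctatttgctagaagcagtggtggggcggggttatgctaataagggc
The motifs were the E-box letters CACCTG, the Runx letters TGTGGT, the NFAT letters TGGAAA, the AP-1 letters TGANTCA and the forkhead letters TGTTTAC. The E-box was in 6 of 11 windows of the Treg surface list (54.5%) and in 6 of 19 of the plasmacytoid list (31.6%), against 16.6% of all 16453 protein-coding genes with a window. The TNF receptor list, with 2 of 12 (16.7%), and the list of Foxp3 and its partners, with 3 of 15 (20.0%), were near the share of all genes. For Runx the shares were 9.09% in the Treg surface, 31.6% in the plasmacytoid, 16.7% in the TNF receptor and 13.3% in the Foxp3 list, against 12.2% of all. For NFAT they were 18.2%, 10.5%, 25.0% and 20.0% in the same order, against 17.1%, and for AP-1 9.09%, 5.26%, 8.33% and 0%, against 6.10%. The forkhead letters were in no window of the 4 lists and in 2.61% of all. These are descriptions of letters in short windows and show no binding.

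The interleukin-2 receptor chain that defines CD25 was higher although the cells were labelled CD25-negative. Il2ra was at 125, 111, 93.4 and 54.4 CPM in uterine Treg and at 22.3, 17.4, 27.2 and 25.9 CPM in CD4conv, without overlap (log2 2.13 ± 0.25, adjusted p = 3.62e-05, edgeR). The fit of all genes did not call it (log2 1.89 ± 0.58, adjusted p = 0.262). Pregnant uterine Treg, with the same label, were at 108, 125, 190.2 and 76.7 CPM. Socs3, a feedback inhibitor of cytokine signalling, went the other way with 201, 263, 155 and 146 CPM against 437, 344, 595 and 413 CPM (log2 -1.15 ± 0.29, adjusted p = 0.0214, edgeR). Its call was lost without CD4conv replicate 3, uterine Treg replicate 1 or uterine Treg replicate 3, with adjusted p up to 0.0855. Those were the only members of the 10 interleukin-2 family genes above background that passed, 1 higher and 1 lower. Il7r, the survival receptor of naive and memory T cells, was at 129, 199.8, 131 and 54.4 CPM and 293, 237, 189 and 242 CPM, with a log2 fold change of -0.84 that did not pass (adjusted p = 0.0727, edgeR). Under T cell scaling Il7r passed (log2 -1.61, adjusted p = 0.00415), and the list had 1 higher and 4 lower members.

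Receptors of the TNF superfamily and their adaptors were next. Of 12 tested, 1 was higher over all genes, and of the 10 above background 6 were higher and none lower (list median 1.54). Tnfrsf9, which encodes the costimulatory receptor 4-1BB, was at 99.5, 87.8, 138 and 79.2 CPM in uterine Treg and at 17.4, 12.4, 12.97 and 17.1 CPM in CD4conv. The groups were several-fold apart in every pairing of libraries (log2 2.91 ± 0.27, adjusted p = 3.12e-06, edgeR). Cd27, another costimulatory receptor, was at 319.6, 312, 192 and 206 CPM and 111, 50.9, 35.6 and 108 CPM (log2 1.86 ± 0.28, adjusted p = 0.000408, edgeR). Tnfrsf18, which encodes GITR, was at 359, 312, 208 and 121 CPM and 106, 72.7, 48.4 and 103 CPM (log2 1.66 ± 0.27, adjusted p = 0.000652, edgeR). Each of these receptors had its lowest Treg library above its highest CD4conv library. Tnfrsf4, which encodes OX40, was at 311, 372, 286 and 194 CPM and 109, 93.8, 48.2 and 112 CPM (log2 1.78 ± 0.36, adjusted p = 0.00447, edgeR). Traf1, an adaptor of these receptors and a target of NF-kB, was at 618, 1034, 526 and 373 CPM and 231, 143, 150.1 and 252 CPM (log2 1.78 ± 0.25, adjusted p = 0.000210, edgeR). Tnfrsf25, which encodes DR3, had overlapping groups at 116.8, 110.1, 56.0 and 31.2 CPM and 41.1, 16.5, 24.0 and 40.3 CPM (log2 1.42 ± 0.37, adjusted p = 0.0278, edgeR). Its call was lost in 4 of the 8 fits that left out 1 library (without CD4conv 2 or 3 or uterine Treg 1 or 2) and under T cell scaling.

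NF-kB genes, which act downstream of these receptors, were also tested. None of 13 passed over all genes (0 higher and 0 lower at an unadjusted p under 0.05 in edgeR, 0 and 0 in DESeq2), while 4 of 13 above background were higher and none lower (list median 0.68). Nfkb2, which encodes the p100 precursor of the alternative pathway, was at 248, 394, 165 and 158 CPM in uterine Treg and at 119, 76.0, 85.7 and 112 CPM in CD4conv, without overlap (log2 1.35 ± 0.27, adjusted p = 0.00375, edgeR). Relb, its partner, and the inhibitors Nfkbie and Nfkbia had smaller log2 fold changes of 0.94, 0.90 and 0.89, with adjusted p = 0.0375, 0.0216 and 0.0415 (edgeR). Scaled on T cell genes 0 of the 13 passed, with a list median of -0.18 against -0.71 for all genes above background. Leaving out 1 library ended the calls of Relb, Nfkbie and Nfkbia in 6, 5 and 6 of 8 fits.

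Among CD28 family and checkpoint receptors 1 of 11 was higher over all genes and 2 of 7 above background, with none lower. Beside Ctla4 this was Tigit, an inhibitory receptor that competes for CD155, at 46.7, 122, 71.3 and 45.0 CPM in uterine Treg and at 13.1, 18.0, 13.2 and 23.1 CPM in CD4conv (log2 2.15 ± 0.33, adjusted p = 0.000474, edgeR). Its groups did not overlap. Icos, a costimulatory receptor, was at 533, 836, 503 and 245 CPM and 302, 254, 137 and 440.2 CPM and did not pass (log2 0.97, adjusted p = 0.0910, edgeR).

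Genes of effector and tissue Treg were called higher more often than lower. Of 16 tested 1 was higher over all genes, and of 13 above background 6 were higher and 1 lower (list median 0.98). Klrg1, an inhibitory receptor for cadherins found on differentiated lymphocytes, was at 176, 154, 109.5 and 52.5 CPM in uterine Treg and at 9.51, 0.325, 12.2 and 19.5 CPM in CD4conv (log2 3.65 ± 0.71, adjusted p = 0.00375, edgeR). The list of mast cell and ILC2 markers also holds Klrg1 and Il1rl1. Its summed levels, with these 2 genes included, were 339, 286, 267 and 252 CPM in uterine Treg and 142, 40.5, 222 and 173 CPM in CD4conv. Because the sums contain Klrg1 itself, they cannot bear on its result, and the part of such cells was not tested. Areg, the epidermal growth factor receptor ligand amphiregulin, was at 56.6, 80.7, 46.3 and 12.9 CPM and 4.26, 7.15, 7.24 and 6.38 CPM. Treg replicate 5 was the lowest of its group but above all CD4conv libraries (log2 2.98 ± 0.57, adjusted p = 0.00289, edgeR). Rora, an orphan nuclear receptor of tissue lymphocytes, was at 719.5, 1264, 798 and 492 CPM and 221, 126, 145 and 377 CPM (log2 2.00 ± 0.36, adjusted p = 0.00178, edgeR).

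Other members had weaker support. Irf4, a factor of effector Treg differentiation, was at 284, 176, 160.0 and 118 CPM in uterine Treg and at 86.6, 50.5, 91.3 and 78.1 CPM in CD4conv (log2 1.36 ± 0.34, adjusted p = 0.0213, edgeR). Its call was lost in 4 of 8 fits that left out 1 library (CD4conv 1 or 2, uterine Treg 1 or 3) and under T cell scaling. Nfil3, a basic leucine zipper factor named after its values were seen, had a log2 fold change of 0.97 (adjusted p = 0.0233, edgeR), lost in 5 of 8 such fits (CD4conv 1, 2 or 5, uterine Treg 1 or 2) and under T cell scaling. Id2, an inhibitor of E proteins high in many effector and innate lymphocytes, was lower at 146, 165, 148 and 99.97 CPM against 374, 434, 393 and 379 CPM (log2 -1.41 ± 0.26, adjusted p = 0.00212, edgeR). NK cell markers also had higher summed levels in CD4conv (given below), and their part in the Id2 result was not tested. Il1rl1, the interleukin-33 receptor gene, was at 93.4, 90.1, 57.3 and 32.2 CPM and 36.6, 20.4, 41.1 and 46.3 CPM and did not pass (log2 0.98, adjusted p = 0.0853, edgeR).

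Among growth and vessel factors, 1 of 15 was higher over all genes and 3 of the 4 above background, with none lower. A gene low in CD4conv can pass the background limit through its Treg levels, so the count above background favours higher genes. Rln3 (chromosome 8, 84042929 to 84045000), the gene of relaxin 3, a peptide hormone, was at 32.9, 54.9, 33.5 and 7.92 CPM in uterine Treg and at 1.64, 0, 0.302 and 0.521 CPM in CD4conv (log2 5.79 ± 0.83, adjusted p = 0.000235, edgeR). It was near 0 in every CD4conv library, and uterine Treg replicate 5 was the lowest of its group. Penk, the precursor of enkephalins, was at 14.5, 13.7, 10.6 and 35.6 CPM and 5.47, 3.17, 2.31 and 7.69 CPM (log2 2.20 ± 0.52, adjusted p = 0.0134, edgeR), with the highest level in uterine Treg replicate 5. Its call was lost without CD4conv replicate 3 or uterine Treg replicate 5, and under T cell scaling (adjusted p = 0.0623). That Treg library also had the highest summed level of fibroblast markers, 1474 CPM against 34.0 to 303 CPM in the other uterine Treg libraries, and their part in the Penk result was not tested.

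Integrins and chemokine receptors set where a T cell resides. Itgae (chromosome 11, 73090583 to 73147446), the CD103 chain that binds E-cadherin, was at 185, 191, 119.7 and 131 CPM in uterine Treg and at 24.3, 2.03, 16.1 and 20.8 CPM in CD4conv, without overlap (log2 3.43 ± 0.44, adjusted p = 0.000105, edgeR). Its partner chain Itgb7 was at 1791, 1642, 946 and 622 CPM and 914, 554, 552 and 744 CPM, with overlap (log2 0.91 ± 0.26, adjusted p = 0.0444, edgeR). The Itgb7 call was lost in 7 of 8 fits that left out 1 library and under T cell scaling. These were the higher members of 7 integrin chains above background, none of which was lower. The list median was 0.50 against 0.02 for all genes above background, and -0.17 against -0.71 under T cell scaling. Itga6, a laminin receptor chain, was at 152, 116, 113 and 89.6 CPM and 73.3, 12.6, 59.8 and 74.8 CPM without overlap but did not pass (log2 1.23, adjusted p = 0.0594, edgeR).

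Of 16 chemokine receptors tested 2 were lower over all genes and 0 higher (3 higher and 5 lower at an unadjusted p under 0.05 in edgeR, 0 and 3 in DESeq2). Of the 11 above background 2 were higher and 2 lower. Ccr6, the receptor of CCL20, was higher at 41.4, 85.7, 31.8 and 22.3 CPM in uterine Treg against 11.6, 20.2, 8.55 and 7.43 CPM in CD4conv (log2 1.92 ± 0.39, adjusted p = 0.00511, edgeR), but not under T cell scaling (log2 1.13, adjusted p = 0.0992). Cxcr4, the CXCL12 receptor, named after its values were seen, was higher by 1.03 (adjusted p = 0.0226, edgeR) and lost its call in 4 of 8 fits (CD4conv 2 or 3, uterine Treg 1 or 3) and under T cell scaling. Both receptors were on the higher side in every Treg library.

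The lower receptors were Ccr9 and Cxcr6. Ccr9 (chromosome 9, 123678439 to 123784330), the receptor of the gut chemokine CCL25, was at 20.9, 17.6, 53.9 and 37.6 CPM in uterine Treg and at 651, 713, 1231 and 464 CPM in CD4conv (log2 -4.38 ± 0.76, adjusted p = 0.00207, edgeR). Ccr9 is known to be used by plasmacytoid dendritic cells as well as T cells. Markers of those cells were higher in the same libraries (given below). Ccr9 is itself a member of that marker list, so its call is counted in both lists. The counts and sums of that list are thus not independent of Ccr9. The part of such cells in the Ccr9 difference was not tested. Cxcr6, a receptor of tissue-resident T, NKT and innate lymphoid cells, was at 0, 9.80, 10.2 and 2.47 CPM and 90.5, 26.9, 52.5 and 128 CPM (log2 -3.56 ± 0.86, adjusted p = 0.0163, edgeR). Ccr2, a receptor of monocytes and effector T cells, was at 241, 249, 166 and 99.97 CPM and 300.2, 282, 772 and 259 CPM. It did not pass (log2 -1.05, adjusted p = 0.0778, edgeR) but did under T cell scaling (log2 -2.15, adjusted p = 0.00970).

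Genes that define T cells were present in both groups. Cd4, the coreceptor by which the cells were enriched, was at 674, 448, 256 and 189 CPM in uterine Treg and at 569, 186, 429 and 625 CPM in CD4conv, in overlapping groups (log2 -0.15, adjusted p = 0.874, edgeR). Of 18 genes of the T cell receptor complex above background 3 were higher and 0 lower (list median 0.39). All of the genes that T cell scaling rests on, except Trac, are members of this list, so that scaling is no test of it. None of 19 passed over all genes (0 higher and 0 lower at an unadjusted p under 0.05 in edgeR, 0 and 0 in DESeq2). The 3 were Cd3e (log2 1.16, adjusted p = 0.0412), Cd2 (log2 1.14, adjusted p = 0.0415) and Skap1 (log2 0.96, adjusted p = 0.0289, edgeR). Each had overlapping groups and lost its call in 4 or more of the 8 fits that left out 1 library. None passed under T cell scaling, but Cd3e and Cd2 themselves help to set that scaling, so it is no test of them. For the T cell receptor alpha constant gene, Trac, levels were 572, 556, 375 and 167 CPM and 388, 255, 144 and 383 CPM (log2 0.40 over all genes, adjusted p = 0.999, edgeR).

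Of 11 naive and recirculation genes above background 1, Foxo1, was higher and 0 lower (list median -0.29). Ccr7, which guides cells into lymph nodes, was at 792, 1170, 729.7 and 499 CPM in uterine Treg and at 667, 416, 248 and 886 CPM in CD4conv (log2 0.62, adjusted p = 0.380, edgeR). This difference did not pass, and the groups overlapped. None of 15 immediate early genes above background passed in either direction (2 higher and 1 lower at an unadjusted p under 0.05 in edgeR, 0 and 1 in DESeq2). Fos, an AP-1 subunit induced by stimulation or tissue handling, was at 1283, 969, 519 and 1868 CPM and 965, 1395, 2744 and 623 CPM (log2 -0.18, adjusted p = 0.858, edgeR). Nr4a1, which reports recent T cell receptor signals, was at 939, 859.8, 641 and 426 CPM and 397, 206, 393 and 454 CPM (log2 1.07, adjusted p = 0.120, edgeR).

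Cytokines and regulators of helper T cells did not pass in either direction. Of 15 tested, 0 were called over all genes (1 higher and 6 lower at an unadjusted p under 0.05 in edgeR, 0 and 2 in DESeq2). Of the 4 above background 0 were called (0 higher and 2 lower at an unadjusted p under 0.05 in edgeR, 0 and 2 in DESeq2). With all genes, 5 members had all uterine Treg libraries below all CD4conv libraries, an arrangement found for 2.65% of all genes, and none the reverse (1.68%). Ifng was at 17.0, 17.5, 9.76 and 12.9 CPM in uterine Treg and at 86.9, 58.7, 51.3 and 98.4 CPM in CD4conv (log2 -2.27 ± 0.67, adjusted p = 0.0525, edgeR). Cd40lg, the ligand by which helper cells license B cells and dendritic cells, was at 0.708, 47.4, 26.7 and 3.46 CPM and 143, 108, 63.3 and 116 CPM (log2 -2.39 ± 0.70, adjusted p = 0.0504, edgeR). Both lay just outside the threshold and passed it under T cell scaling (log2 -2.90 and -3.12, adjusted p = 0.0166 and 0.0126). Il2, the growth factor that Treg consume and do not make, was at 0.708, 0.178, 8.06 and 1.48 CPM and 16.0, 52.2, 8.35 and 19.7 CPM (over all genes log2 -3.98, adjusted p = 0.0735, edgeR). Tbx21, the Th1 regulator T-bet, was at 0.708, 14.8, 9.34 and 14.8 CPM and 43.1, 57.5, 35.1 and 75.1 CPM (over all genes log2 -2.69, adjusted p = 0.201, edgeR). Il22, named after its values were seen, was at 0, 0.178, 0 and 0 CPM and 7.00, 4.15, 3.52 and 3.52 CPM. T-bet and interferon gamma are also made by NK cells and Il22 by innate lymphoid cells, and the part of NK cell markers in these differences was not tested.

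Outside the lists, the 12 highest genes by the naming rule were Ppil1, 1110032F04Rik, Acsbg1, Matk, Phlpp1, Ncmap, Dusp4, Pear1, H2-Ob, Zbtb32, Sesn1 and Lamc1, with log2 fold changes from 2.10 to 3.00. All 12 had higher levels in every uterine Treg library than in any CD4conv library, which the rule required. Ppil1, a cyclophilin-like splicing factor, was at 139, 308, 176 and 131 CPM in uterine Treg and at 26.7, 30.8, 17.6 and 23.5 CPM in CD4conv (log2 3.00 ± 0.33, adjusted p = 1.46e-05, edgeR). Matk, a kinase that restrains Src kinases, was at 176, 256, 122 and 103 CPM and 37.7, 26.1, 20.4 and 23.7 CPM (log2 2.66 ± 0.29, adjusted p = 1.37e-05, edgeR). Phlpp1, a phosphatase of AKT that Treg are known to carry, was at 85.7, 130.0, 135 and 93.0 CPM and 18.4, 10.7, 22.1 and 33.0 CPM (log2 2.54 ± 0.37, adjusted p = 0.000282, edgeR). Uterine Treg replicate 2 held the highest level of Ppil1 and Matk, and replicate 3 that of Phlpp1. Dusp4, a nuclear phosphatase of MAP kinases, was at 119.6, 244, 140.1 and 124 CPM and 42.9, 16.4, 14.8 and 57.6 CPM (log2 2.37 ± 0.40, adjusted p = 0.000912, edgeR). Zbtb32, a zinc finger repressor of activated lymphocytes, was at 51.3, 55.4, 44.1 and 30.7 CPM and 15.3, 6.75, 5.93 and 15.6 CPM (log2 2.17 ± 0.42, adjusted p = 0.00295, edgeR). Sesn1, a sestrin of the p53 and Foxo responses, was at 179, 214, 146 and 138 CPM and 51.2, 15.3, 51.2 and 48.6 CPM (log2 2.13 ± 0.35, adjusted p = 0.000787, edgeR). H2-Ob, Sesn1 and Lamc1 did not pass under T cell scaling (adjusted p = 0.119, 0.0560 and 0.0526), and 1110032F04Rik lost its call in 4 of 8 fits that left out 1 library (CD4conv 1, 2 or 3, uterine Treg 2). Pear1 overlaps other annotated genes, so its reads may belong to a neighbour.

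**Figure D3:**
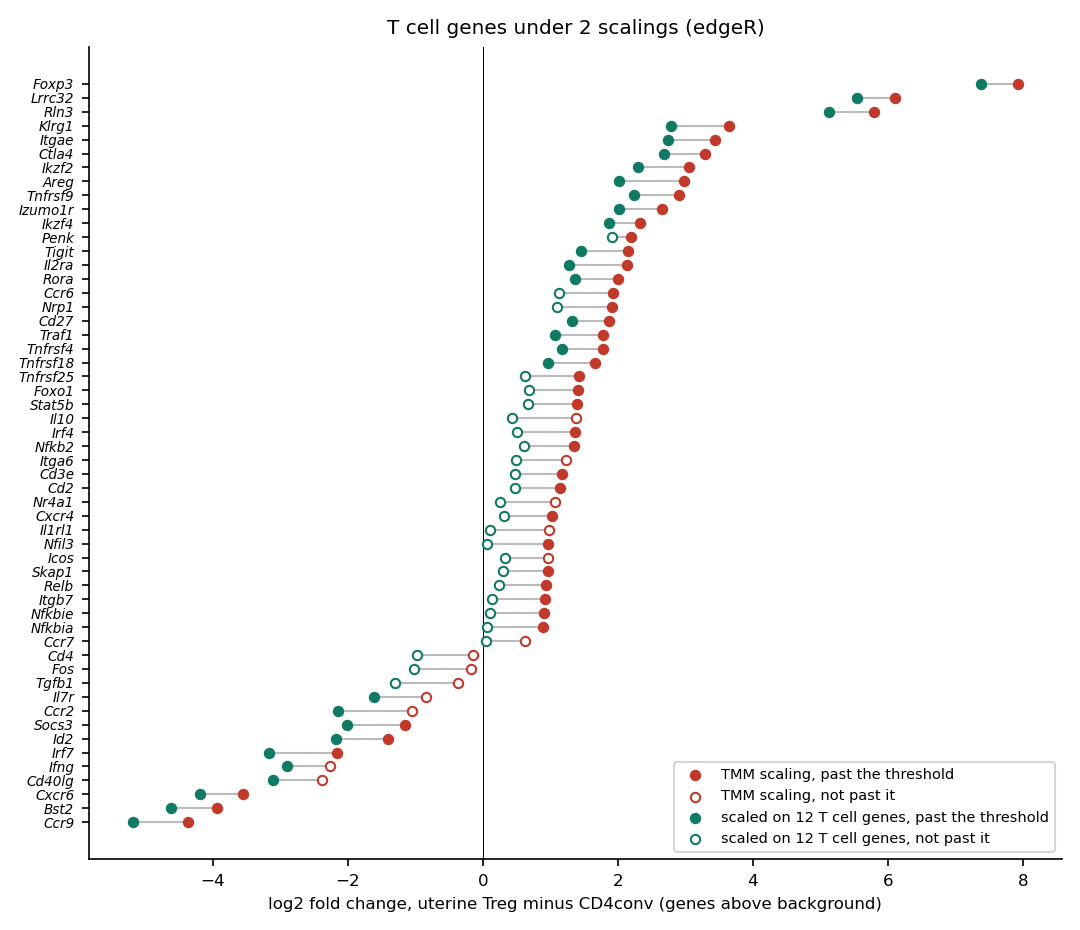
Log2 fold change (x axis, uterine Treg minus CD4conv, genes above background, edgeR) of the T cell genes reported, one per line, under TMM scaling (red) and scaled on 12 T cell genes (green), filled where the adjusted p is under 0.05. Foxp3 moves from 7.92 to 7.38 and Nfkb2 from 1.35 to 0.61, and open points did not pass. Cd3e and Cd2 are among the 12 genes that set the green scaling.

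The CD4conv libraries held high levels of genes that conventional T cells are not known for, among them genes of plasmacytoid dendritic cells. Those are interferon-producing cells that depend on the E protein Tcf4 and on Irf8 and, in mice, carry Siglech and Bst2 on the surface. Of 26 such genes tested 19 were lower in uterine Treg over all genes and none higher, with a list median of -5.004 against -0.05 for all genes tested. Scaled on T cell genes 13 were lower over all genes. Above background 12 of 16 were lower (list median -4.72). Without 8 members that earlier results of these data had already named, 12 of 18 were lower over all genes. The rest of the list was also chosen with earlier results known, so this count is no independent check. The summed level of the list was 7576, 9208, 9988 and 3991 CPM in CD4conv and 299, 433, 587 and 842 CPM in uterine Treg. CD4conv replicate 5 was the lowest of its group for all 26 members, and the highest level was in replicate 3 for 12 members, in replicate 2 for 11 and in replicate 1 for 3.

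Single members showed the same order of groups. Siglech (chromosome 7, 55768178 to 55778925) was at 0, 17.5, 42.4 and 35.6 CPM in uterine Treg and at 1256, 1257, 1622 and 764 CPM in CD4conv (log2 -5.47 ± 1.22, adjusted p = 0.0138, edgeR). Irf8 was at 7.08, 11.4, 24.2 and 41.1 CPM and 1181, 1123, 1311 and 543 CPM (log2 -5.44 ± 0.53, adjusted p = 3.81e-06, edgeR). Tcf4 was at 51.0, 22.3, 116 and 185 CPM and 428, 592, 476 and 257 CPM (over all genes log2 -2.89, adjusted p = 0.0343, edgeR), closer together than the others, with Treg replicates 3 and 5 the highest of their group. The Tcf4 call was lost in 6 of 8 fits that left out 1 library (all but replicate 5 of either group). Over all genes the Siglech and Tcf4 calls ended under T cell scaling (adjusted p = 0.204 and 0.747). Cox6a2 (chromosome 7, 128205435 to 128206387), a respiratory chain subunit known from muscle and from plasmacytoid dendritic cells, was at 138, 225, 149 and 57.9 CPM in CD4conv, and the uterine Treg libraries held none of its reads. Against a floor of 3 counts over the 4 Treg libraries it was at least 609-fold lower in uterine Treg. Ly6c2 was at 0, 1.25, 2.12 and 7.42 CPM and 425, 605, 626 and 161 CPM, and its near-identical neighbour Ly6c1 at 0.708, 2.85, 9.34 and 19.8 CPM and 463, 669.9, 807 and 237 CPM. Reads may be split between the Ly6c genes, so neither value stands alone (log2 -7.45 ± 1.16, adjusted p = 0.000912 and log2 -5.94 ± 1.02, adjusted p = 0.00207, edgeR). Ly6C is also carried by monocytes and some T cells.

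Other members reached similar sizes. Klk1b27, a kallikrein of a family of close paralogs, was at 0.708, 0.712, 4.24 and 0.990 CPM in uterine Treg and at 119, 105, 116.7 and 46.6 CPM in CD4conv (log2 -5.75 ± 0.80, adjusted p = 0.000185, edgeR). Rnase6, a secreted ribonuclease, was at 0, 0, 6.79 and 7.92 CPM and 286, 244, 349 and 144 CPM (log2 -6.03 ± 1.22, adjusted p = 0.00699, edgeR). Cd209d, a C-type lectin gene, was at 0, 2.49, 2.55 and 5.44 CPM and 82.1, 132, 114 and 42.2 CPM (log2 -5.03 ± 0.90, adjusted p = 0.00160, edgeR). For all of these the highest Treg value lay well below the lowest CD4conv value. Lefty1, Smim5, Tlr7, Runx2 and Spib, named after their values were seen, were lower over all genes with log2 fold changes of -7.39, -8.11, -4.18, -3.14 and -6.04. The calls of Smim5, Tlr7 and Spib ended under T cell scaling (adjusted p = 0.0621, 0.0526 and 0.230), and among genes above background Spib did not pass (adjusted p = 0.0549, edgeR). The Spib call over all genes was lost in 5 of 8 fits that left out 1 library (CD4conv 2 or 3, uterine Treg 1, 2 or 5). Klk1 was 1 of the 7 members not called over all genes. It was at 0, 0, 0.424 and 161 CPM and 646, 881, 758 and 279.5 CPM and did not pass (over all genes log2 -4.92, adjusted p = 0.154, edgeR). Uterine Treg replicate 5 alone stood above 1 CPM in its group.

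Genes of the interferon response overlap with this list. Bst2, which encodes tetherin, was at 9.56, 35.1, 25.5 and 31.2 CPM in uterine Treg and at 454, 639, 429.7 and 158 CPM in CD4conv (log2 -3.94 ± 0.45, adjusted p = 2.23e-05, edgeR). Irf7, the regulator of type I interferon genes, was at 120.0, 126, 79.4 and 78.2 CPM and 372, 411, 844 and 265 CPM (log2 -2.17 ± 0.33, adjusted p = 0.000408, edgeR). Those 2 were the only lower members of 13 interferon-stimulated genes above background, and none was higher. Both are also high in plasmacytoid dendritic cells and are themselves members of the plasmacytoid list. That list is thus not independent of them, and the part of such cells was not tested. The other 11 interferon-stimulated genes did not pass (list median -0.67).

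**Figure D4:**
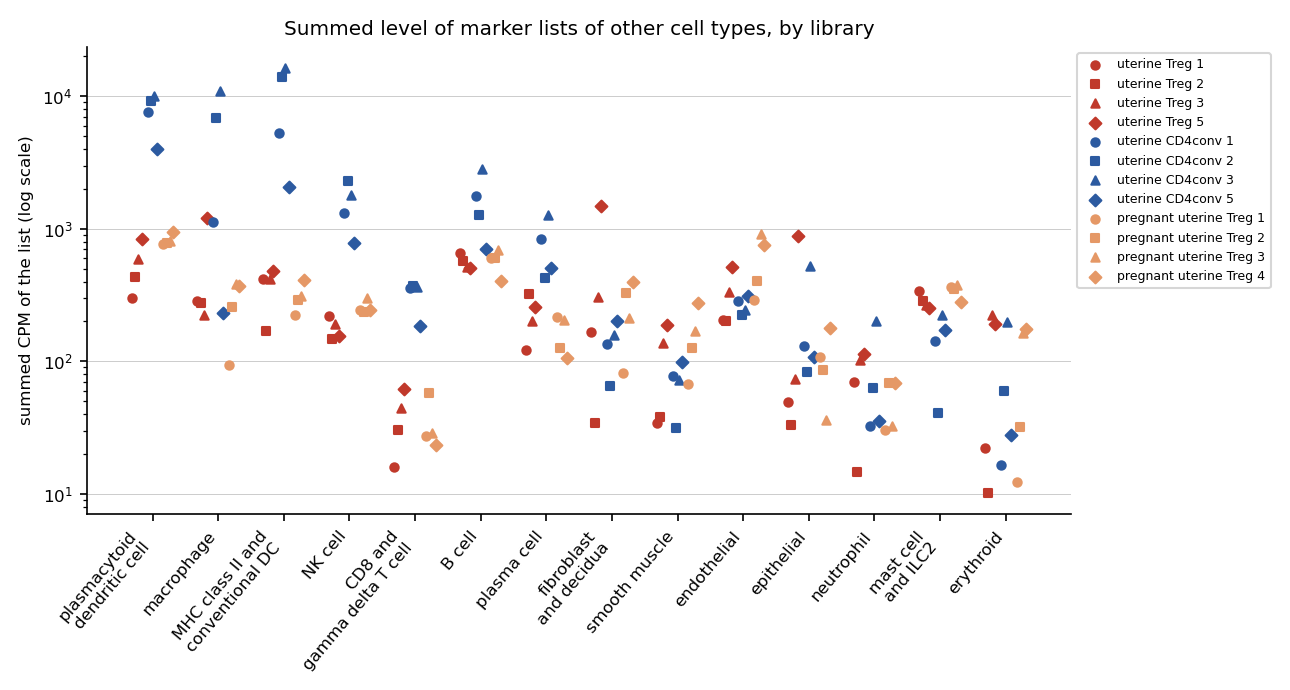
Summed CPM (log axis) of each of 14 marker lists of other cell types in each library, with colours for the group and symbols for the library. The plasmacytoid list sums lie between 3991 and 9988 CPM in CD4conv and between 299 and 842 CPM in uterine Treg, whereas the fibroblast and epithelial lists are higher in uterine Treg replicate 5 than in the other uterine Treg and CD4conv libraries.

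Antigen presentation genes were high in CD4conv and uneven among its libraries. Of 17 MHC class II and conventional dendritic cell genes tested 8 were lower in uterine Treg over all genes and none higher, and 6 of 8 above background. Cd74, the invariant chain of MHC class II, was at 191, 32.9, 132 and 175 CPM in uterine Treg and at 3041, 7595, 9214 and 1135 CPM in CD4conv (log2 -5.16 ± 0.74, adjusted p = 0.000443, edgeR). H2-Aa, an MHC class II alpha chain, was at 36.1, 6.95, 15.3 and 28.7 CPM and 475, 1692, 1636 and 171 CPM (log2 -5.44 ± 0.83, adjusted p = 0.000771, edgeR). H2-Ab1 was at 69.7, 30.5, 56.0 and 38.1 CPM and 699, 2092, 2342 and 259 CPM (log2 -4.71 ± 0.57, adjusted p = 6.06e-05, edgeR). CD4conv replicates 2 and 3 were well above replicates 1 and 5 for each, yet replicate 5 still lay above all Treg libraries. MHC genes are polymorphic and similar to each other, so reads of this strain may be assigned unevenly among them. Flt3, the growth factor receptor of dendritic cells, was at 10.97, 3.74, 51.4 and 45.0 CPM and 155, 91.6, 239 and 97.3 CPM (over all genes log2 -2.95, adjusted p = 0.0317, edgeR), a call lost in 6 of 8 fits that left out 1 library (all but CD4conv 5 and uterine Treg 3) and under T cell scaling (adjusted p = 0.390). Above background Flt3 did not pass (log2 -2.13, adjusted p = 0.208, edgeR).

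Macrophage genes were uneven among the CD4conv libraries. The summed level of 18 tested markers was 1123, 6882, 11029 and 230.1 CPM in CD4conv and 285, 274, 225 and 1203 CPM in uterine Treg. CD4conv replicate 5 was thus below 3 of the 4 Treg libraries, and CD4conv replicate 1 was below Treg replicate 5. Apoe, a lipid carrier abundant in tissue macrophages, was at 74.3, 103, 56.5 and 532 CPM in uterine Treg and at 418, 3588, 4652 and 22.3 CPM in CD4conv (over all genes log2 -4.25, adjusted p = 0.152, edgeR). Lyz2, myeloid lysozyme, was at 7.43, 55.6, 35.7 and 324 CPM and 246, 1505, 3309 and 18.1 CPM (over all genes log2 -4.31, adjusted p = 0.124, edgeR). In both, Treg replicate 5 was above CD4conv replicates 1 and 5, and neither passed. Over all genes 5 of the 18 were lower and none higher, and 2 of 9 above background. Cd68, a lysosomal glycoprotein of macrophages that plasmacytoid dendritic cells also make, was at 0, 5.88, 7.64 and 5.94 CPM and 162, 205, 377 and 63.8 CPM (log2 -5.25 ± 0.83, adjusted p = 0.000625, edgeR). C1qa, a complement subunit of tissue macrophages, was at 0.708, 9.97, 4.67 and 24.3 CPM and 21.9, 247, 231 and 7.69 CPM (over all genes log2 -4.35, adjusted p = 0.0387, edgeR), a call lost in 6 of 8 fits that left out 1 library (CD4conv 2 or 3 or any uterine Treg) and under T cell scaling (adjusted p = 0.153). Above background C1qa did not pass (adjusted p = 0.0570, edgeR). Csf1r, the macrophage growth factor receptor, named after its values were seen, had a log2 fold change of -2.78 over all genes that turned to 0.26 without CD4conv replicates 2 and 3 and passed in neither fit.

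Without CD4conv replicates 2 and 3, an alternative chosen after seeing the data, 8 of 16 plasmacytoid genes above background were lower and the list median was -4.07, and over all genes 7 of 26 were lower. That fit called 1.02% of the genes above background lower and 1.19% higher, and 0.0764% and 0.00332% of all genes. In the same fit 1 of 9 macrophage genes was lower and that list median was -0.27. In that fit 4 of 10 Treg surface genes, 3 of 15 genes of Foxp3 and its partners and 4 of 10 TNF receptor genes above background were higher. Over all genes the counts were 0 of 14, 1 of 18 and 0 of 12, against 2, 2 and 1 with all libraries.

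Markers of NK cells had a higher summed level in every CD4conv library. The sum was 1315, 2305, 1803 and 777 CPM in CD4conv and 219.8, 147, 193 and 156 CPM in uterine Treg. Of 15 tested 3 were lower in uterine Treg over all genes and 5 of 7 above background, with none higher. Tyrobp, the DAP12 signalling adaptor of NK and myeloid cells, was at 4.25, 15.7, 3.82 and 13.9 CPM in uterine Treg and at 654, 1267, 899.6 and 274 CPM in CD4conv (log2 -6.29 ± 0.59, adjusted p = 3.6e-06, edgeR). Fcer1g, an adaptor of Fc receptors, was at 12.4, 3.21, 9.34 and 16.8 CPM and 91.7, 399, 376 and 36.5 CPM (log2 -4.34 ± 0.73, adjusted p = 0.00101, edgeR). Both are shared with plasmacytoid dendritic cells and macrophages. Nkg7, a granule protein of cytotoxic cells, was at 9.56, 31.5, 29.3 and 2.47 CPM and 141, 241, 80.9 and 161 CPM (log2 -3.02 ± 0.55, adjusted p = 0.00178, edgeR). Ncr1, the defining receptor NKp46, was at 0.354, 0.178, 7.22 and 4.95 CPM and 24.8, 32.4, 20.4 and 11.6 CPM and did not pass (over all genes log2 -3.57, adjusted p = 0.122, edgeR). Klrd1, which encodes CD94, was at 3.89, 2.67, 9.34 and 3.46 CPM and 51.8, 73.4, 50.1 and 29.1 CPM (over all genes log2 -3.89, adjusted p = 0.0458, edgeR), a call lost in 7 of 8 such fits, all but that without CD4conv replicate 5, and under T cell scaling (adjusted p = 0.216). Above background Klrd1 did not pass (adjusted p = 0.0530, edgeR). Gzma, granzyme A, passed above background only (log2 -3.12 ± 0.91, adjusted p = 0.0474, edgeR) and was lost in 7 of 8 fits that left out 1 library.

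Coreceptor genes of CD8 cells were also present in the CD4-sorted conventional cells. Of 8 tested genes of CD8 and gamma delta T cells, 2 were lower over all genes and 0 higher. The other 6 were not called, and 0.485% of all genes were lower. Only 1 of the 8, Cd8b1, was above background. Cd8b1 was at 6.02, 17.3, 20.0 and 23.3 CPM in uterine Treg and at 286, 295, 300.4 and 119 CPM in CD4conv (log2 -3.76 ± 0.50, adjusted p = 0.000122, edgeR), lowest in CD4conv replicate 5. Cd8a was at 0, 2.14, 4.24 and 3.46 CPM and 35.2, 55.0, 36.9 and 20.3 CPM (over all genes log2 -4.43, adjusted p = 0.00944, edgeR). Its call was lost without CD4conv replicate 2 and under T cell scaling. Conventional CD4 T cells are defined as lacking this coreceptor, and the part of other cells in these levels was not tested.

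B cell and plasma cell genes gave 2 and 1 lower members over all genes. Blnk, an adaptor of the B cell receptor, was at 36.1, 3.21, 23.3 and 23.8 CPM in uterine Treg and at 188, 214, 321 and 125 CPM in CD4conv (over all genes log2 -3.75, adjusted p = 0.00748, edgeR). It did not pass above background (adjusted p = 0.0634, edgeR) or over all genes under T cell scaling (adjusted p = 0.140). Igkc, the kappa light chain constant gene, was at 15.6, 55.2, 15.3 and 19.8 CPM and 742, 90.0, 1348 and 38.7 CPM, with CD4conv replicates 1 and 3 far above replicates 2 and 5 (over all genes log2 -4.40, adjusted p = 0.0209, edgeR). That call was lost without CD4conv replicate 3 or uterine Treg replicate 1, 3 or 5. Mzb1, a chaperone of secretory B cells and plasmacytoid dendritic cells, was at 0, 0.534, 2.12 and 2.97 CPM and 67.2, 38.9, 80.3 and 32.1 CPM (log2 -5.17 ± 1.10, adjusted p = 0.00676, edgeR). Xbp1, the factor of the secretory programme, was at 108, 290.3, 165 and 149 CPM and 488, 361, 676 and 443 CPM (log2 -1.38 ± 0.30, adjusted p = 0.00807, edgeR).

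The 12 lowest genes outside the lists were Mpeg1, Ly6c1, Ly86, Pld4, Hs3st1, Lair1, Pltp, Fcrla, Grn, Ms4a4c, Slamf9 and Scimp. Mpeg1, a pore-forming protein of phagocytes, was at 32.9, 16.2, 7.64 and 18.8 CPM in uterine Treg and at 1046, 737, 2365 and 752 CPM in CD4conv (log2 -5.95 ± 0.94, adjusted p = 0.00105, edgeR). Grn, progranulin, was at 75.4, 46.7, 28.9 and 83.6 CPM and 1586, 1340, 2439 and 774 CPM (log2 -4.59 ± 0.48, adjusted p = 1.27e-05, edgeR). Lair1, an inhibitory collagen receptor of leukocytes, was at 19.1, 3.56, 14.9 and 6.93 CPM and 332, 339, 495 and 207 CPM (log2 -4.85 ± 0.75, adjusted p = 0.000625, edgeR). Hs3st1, a heparan sulfate sulfotransferase, was at 0.354, 1.25, 2.97 and 4.95 CPM and 79.3, 105, 103 and 42.0 CPM (log2 -4.99 ± 0.86, adjusted p = 0.00121, edgeR). Their CD4conv libraries lay above all Treg libraries, as the naming rule required.

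**Figure D5:**
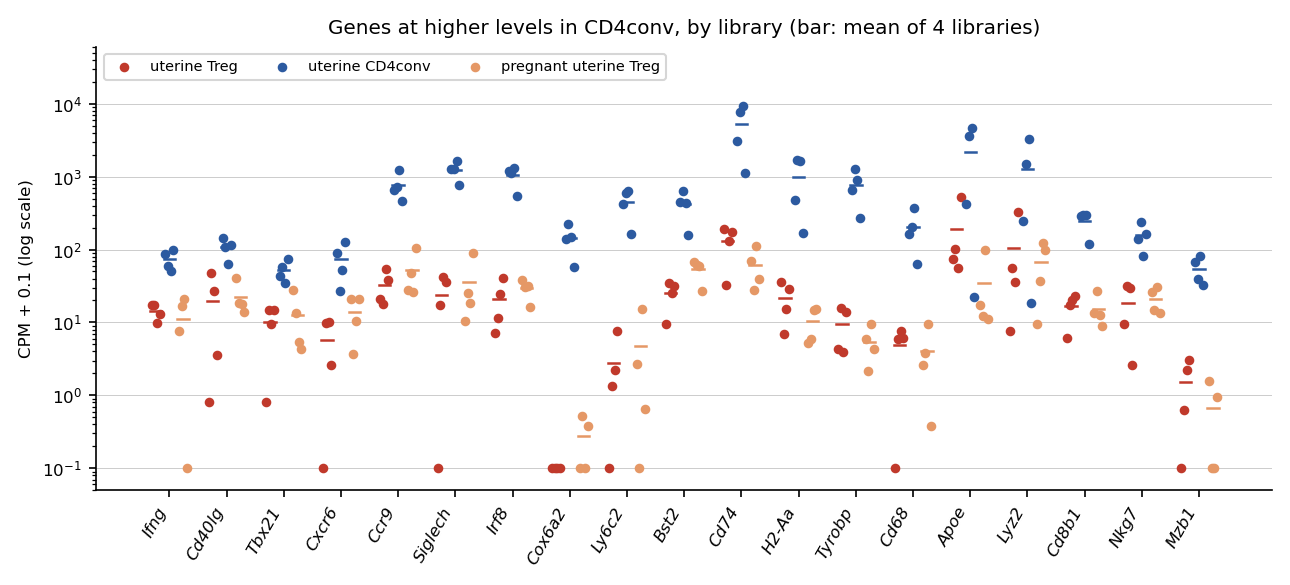
Level of 19 genes in each library (CPM + 0.1, log axis) of uterine Treg (red), CD4conv (blue) and pregnant uterine Treg (orange), with a bar at the mean of 4 libraries. The CD4conv points lie above all uterine Treg points except for Apoe and Lyz2. Their CD4conv replicate 5 values of 22.3 and 18.1 CPM lie within or below the uterine Treg range. Their CD4conv replicate 1 values lie within that range.

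Stromal markers were looked at last. Over all genes 0 of 56 members of the fibroblast, smooth muscle, endothelial, epithelial, neutrophil and erythroid lists passed in either direction (4 higher and 2 lower at an unadjusted p under 0.05 in edgeR, 0 and 0 in DESeq2). Of the 11 above background 1 was higher, Actg2, a smooth muscle actin gene named after its values were seen. It was at 14.2, 28.1, 18.3 and 29.7 CPM in uterine Treg and at 5.58, 4.96, 7.14 and 8.34 CPM in CD4conv, without overlap (log2 1.93 ± 0.55, adjusted p = 0.0420, edgeR). Its call was lost in 7 of 8 fits that left out 1 library (all but uterine Treg 1) and under T cell scaling (adjusted p = 0.209). Summed fibroblast and decidua markers were 167, 34.0, 303 and 1474 CPM in uterine Treg and 136, 64.7, 159 and 201 CPM in CD4conv, and epithelial markers 49.5, 33.3, 73.4 and 879 and 131, 83.2, 527 and 107 CPM. Uterine Treg replicate 5 was the highest of these 8 libraries in both.

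In pregnant uterine Treg, sequenced in batch 1 like CD4conv, Foxp3, Lrrc32, Ctla4, Tnfrsf9, Itgae and Rln3 were also higher than in CD4conv. One pregnant library, replicate 4, had an even background of 53.6% of its counts. Pregnant uterine Treg had 194 higher genes (4.11%) and 202 lower genes (4.28%) than CD4conv among those above background, and 10 (0.0332%) and 120 (0.399%) over all genes. Foxp3 was at 677, 216, 814 and 192 CPM in the pregnant libraries, Lrrc32 at 369, 116, 380.1 and 72.5 CPM and Ctla4 at 2437, 1300, 1703 and 385 CPM. Log2 fold changes against CD4conv were 8.13, 4.97 and 3.35 for these genes, against 7.92, 6.11 and 3.28 for non-pregnant uterine Treg. For Tnfrsf9, Itgae and Rln3 the pregnant values were 3.30, 4.30 and 5.24. Socs3, Irf4, Nfkb2 and Cxcr6, which passed in non-pregnant Treg, did not pass in pregnant Treg (log2 -0.70, 0.53, 0.61 and -2.05), and the difference between the comparisons was not tested here. Of the 16 plasmacytoid genes above background 14 were lower in pregnant Treg as well. The summed plasmacytoid level was 767, 777, 813 and 943 CPM in the pregnant libraries. In this comparison both groups were sequenced in batch 1, and the mice differed in pregnancy instead.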

How the data were processed

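RNA from sorted cells was amplified with SMART-Seq v4 and sequenced as paired reads of 150 bases from Nextera XT libraries, per the labels' protocols. The authors deposited raw read counts per gene, 1 column per library. The submitters' processing notes name Trimmomatic, HISAT2, SAMtools, featureCounts and DESeq2 with GRCm38 and give no role or order, with no versions. The kits do not mark strand, so overlapping genes share reads (18 of 119 reported genes overlap another protein-coding gene). The count table has 49585 genes, of which 49326 were named from GENCODE M21.

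Counts were tested with edgeR 4.0.16 (R 4.3.3, TMM, filterByExpr, robust quasi-likelihood fit of all 16 libraries in 4 groups, Benjamini-Hochberg adjustment), with DESeq2 1.42.0 as an alternative. SEs were obtained from the size of the log2 fold change and its F statistic (square root). Genes above background are protein-coding genes whose mean share per exonic base exceeds 5 times that of the olfactory and vomeronasal receptor genes. The mean is over all 16 libraries, most of them Treg. In simulated data, changes were placed only in genes with higher expected counts. The fit of all 30096 genes recovered 0% of 2-fold, 5.97% of 4-fold and 37.9% of 8-fold changes. Among the 4719 genes above background 86.6% of 4-fold and 26.9% of 2-fold changes were recovered. The simulation did not model differences between libraries in even background or in cells of other types, so recovery in the real data may differ. Replicates are pools of mice, and p-values measure the spread between pools. Intervals of counting error were not used, and the floor for a gene without counts is 3 counts over a group.

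Named genes were a fixed set, then the 12 highest and 12 lowest past the threshold among genes above background. Those had no overlap and a mean of 20 CPM or more on the higher side. They were taken with list members included and again outside the lists. Then came up to 8 members of each list by unadjusted p over all genes. Names outside this rule are given as such. The members and lists were chosen with earlier results of these data known. Lymph node Treg entered only the fit and the mean used for the background limit. Alternatives were other size factors, no filter, a stricter background limit, the 8 libraries alone, a replicate block, T cell scaling and leaving out each library. Leaving out libraries of high background, or CD4conv 2 and 3, was chosen after seeing the data. A member of the naive and recirculation list is not reported here.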

Additional observations from a re-analysis of the deposited data

Results flagged for a closer look

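Within each group of 4, a library stood apart where its gap to the nearest other library exceeded Dixon's 95% critical share of the group's range. This held for 20 of 296 gene and list levels tested, where chance gives about 1 in 20, or 15. In 9 of the 20 the library was uterine Treg replicate 5. Its levels were 35.6 CPM for Penk, 1.485 for Smim5, 160.9 for Klk1, 532 for Apoe, 324 for Lyz2 and 35.1 for Pltp. Its summed levels were 578 CPM for growth and vessel factors, 1203 for macrophage genes and 879 for epithelial genes. The other uterine Treg libraries apart were replicate 3 for Il2 (8.065 CPM) and Klk1b27 (4.245 CPM), and replicate 2 for Il22 (0.178 CPM), Dusp4 (244 CPM) and Igkc (55.2 CPM). Among CD4conv, replicate 2 was low for Sesn1 (15.3 CPM), and replicate 5 was low for Cd8b1 (118.8 CPM) and summed CD8 and gamma delta T cell genes (185 CPM). CD4conv replicate 3 was high for Ccr2 (771.8 CPM), for summed growth and vessel factors (378 CPM) and for summed epithelial genes (527 CPM).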

How the results depend on the processing

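Over all genes, 10 were higher and 146 lower. DESeq2 gave 40 and 280. Without the libraries of even background above 30% the counts were 113 and 327, and without CD4conv replicates 2 and 3 they were 1 and 23. Leaving out 1 library of the 8 gave 3 to 11 higher and 69 to 164 lower genes. Among genes above background, with 147 higher and 141 lower, T cell scaling gave 30 and 539, DESeq2 gave 205 and 232, and the fit without CD4conv 2 and 3 gave 56 and 48. Leaving out 1 library gave 89 to 166 higher and 94 to 168 lower. Fewer samples enter the fits that leave libraries out, and some of these fits called more genes and others fewer. The cause of the changes in counts was not tested for any alternative. The replicate block on the 8 libraries gave 59 higher and 63 lower genes above background and 10 and 157 over all genes. Library numbers are not known to pair the pools: same-numbered deviations correlated at 0.12, 0.09, 0.06 and -0.21, and not every library correlated best with its own number. Other size factors, no filter, 10 times background and the 8 libraries alone stayed within 1.5 times. Of 83 reported genes called above background 66 passed in all 8 leave-one-out fits, 62 passed under T cell scaling, and the sign of 0 turned there. Cd3e and Cd2 among the 83, and Trac below, help to set that scaling, so it is no test of them. Signs that turned among the reported genes were of genes not called: Cd4 (-0.64 to 0.055 when 1 library was left out, above 0 without uterine Treg 5, and 0.40 without libraries above 30% background), Trac (-0.11 under T cell scaling), Ccr7 (-0.084 to 0.69 when 1 library was left out, below 0 without uterine Treg 2), Tgfb1 (0.10 without libraries above 30% background), Csf1r (-2.78, and 0.26 without CD4conv 2 and 3) and Fos (0.47 without CD4conv 2 and 3, and -0.68 to 0.36 above background when 1 library was left out). Depth was 2020507 to 12302043 counts per library, and 0% of simulated 2-fold changes were recovered over all genes.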
